A study of Homo sapiens with 3 samples.

Results

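Among the regions of a breast cancer cell line where histone H3 variants were mapped, 3065 lay away from any gene that the authors assigned, held no CpG island and stood on the H3.3 side of a ratio threshold. They were chosen from the authors' merged list as rows with a gene count of 0 and a CpG island count of 0 whose log2((H3.3 mean height + 1)/(H3.1/H3.2 mean height + 1)) lay above -0.3, on chromosomes 1 to 22 and X. They made up 4.51% of 67965 regions and 3.58% of the bases in regions, and 87.5% of the 3501 gene-free regions without a CpG island. The cells were MDA-MB-231 LM2, a lung-tropic metastatic derivative of a triple-negative breast cancer line, profiled by chromatin immunoprecipitation and sequencing (ChIP-seq). Chromatin (30 µg) was precipitated with 4 µg of an antibody that recognises H3.1 and H3.2 together or with 6 µg of one against H3.3, and input DNA was sequenced as well but not analysed here. The column headers also carry the tag shGFP, which no sample label explains. All values come from 1 cell line and 1 library per antibody, so there was no replicate check, no p-value is given, and the intervals cover the counting of tags or the spread among regions alone.

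Histone H3.1 and H3.2 are built into chromatin mainly behind the replication fork by the chaperone CAF-1. H3.3 is exchanged for them throughout the cell cycle, by HIRA at active genes and enhancers and by DAXX with ATRX at repeats and telomeres. Away from genes, sites of H3.3 exchange are known from other human cells to include enhancers, where bound transcription factors keep nucleosomes in turnover. AP-1, a dimer of FOS and JUN family proteins that binds the letters TGACTCA, is among the factors best known at enhancers of this line's parent.

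Some of these regions start a transcript in the RefSeq annotation even though the authors' annotation assigned them no gene, and those give sequence to show. A RefSeq promoter window, from 250 bases before to 50 bases after a gene's start, lay wholly inside a member in 43 cases, 1 per member, and 41 of the 43 genes were long non-coding RNA (lncRNA) genes. The AP-1 letters, on either strand, were present in 13 of the 43 windows. The 6 of these 13 whose regions had the tallest H3.3 are printed 5′ to 3′ in the direction of the gene, from RefSeq on GRCh38.p14, with each AP-1 match in capitals.
LOC107986092, chr3:58471123-58471422, plus strand: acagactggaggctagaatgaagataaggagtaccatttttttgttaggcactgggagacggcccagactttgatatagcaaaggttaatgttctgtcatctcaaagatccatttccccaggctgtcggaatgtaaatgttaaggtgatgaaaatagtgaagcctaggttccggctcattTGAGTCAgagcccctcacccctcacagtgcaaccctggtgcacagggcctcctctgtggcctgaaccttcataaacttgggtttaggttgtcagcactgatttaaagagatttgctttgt
LINC03108, chr1:234980727-234981026, minus strand: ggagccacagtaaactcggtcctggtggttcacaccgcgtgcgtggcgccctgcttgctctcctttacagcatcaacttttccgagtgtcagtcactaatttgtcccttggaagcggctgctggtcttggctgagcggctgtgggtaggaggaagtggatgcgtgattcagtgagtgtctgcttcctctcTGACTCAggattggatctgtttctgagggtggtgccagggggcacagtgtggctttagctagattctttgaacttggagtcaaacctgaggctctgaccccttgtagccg
LOC124903318, chr14:55103280-55103579, minus strand: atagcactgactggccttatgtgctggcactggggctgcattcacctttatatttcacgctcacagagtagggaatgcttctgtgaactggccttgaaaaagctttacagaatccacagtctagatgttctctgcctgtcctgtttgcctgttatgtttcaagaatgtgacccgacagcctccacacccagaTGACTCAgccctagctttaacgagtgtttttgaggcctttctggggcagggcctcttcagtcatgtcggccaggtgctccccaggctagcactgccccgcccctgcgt
LOC124903939, chr17:16866474-16866773, plus strand: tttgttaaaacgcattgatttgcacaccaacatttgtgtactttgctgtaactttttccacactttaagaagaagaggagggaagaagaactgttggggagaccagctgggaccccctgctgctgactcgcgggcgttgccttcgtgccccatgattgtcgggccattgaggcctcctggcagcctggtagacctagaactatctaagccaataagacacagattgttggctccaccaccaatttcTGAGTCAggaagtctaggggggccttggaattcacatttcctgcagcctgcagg
ITPR2-AS2, chr12:26318674-26318973, plus strand: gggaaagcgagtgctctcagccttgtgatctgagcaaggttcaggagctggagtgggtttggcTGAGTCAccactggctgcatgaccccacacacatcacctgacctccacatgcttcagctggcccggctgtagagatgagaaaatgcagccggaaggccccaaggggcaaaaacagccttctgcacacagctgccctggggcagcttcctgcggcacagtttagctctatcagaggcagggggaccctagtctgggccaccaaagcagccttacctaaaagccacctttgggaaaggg
LINC02535, chr6:85404753-85405052, minus strand: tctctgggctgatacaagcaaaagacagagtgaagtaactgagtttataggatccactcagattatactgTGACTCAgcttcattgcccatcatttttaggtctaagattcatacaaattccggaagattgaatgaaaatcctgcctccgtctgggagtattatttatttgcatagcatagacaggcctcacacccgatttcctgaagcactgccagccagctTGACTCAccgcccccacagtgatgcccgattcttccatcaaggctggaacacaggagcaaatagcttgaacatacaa

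In the first 4 of these windows the match began 70, 60, 58 and 4 bases before the start, in ITPR2-AS2 it began 187 bases before it, and LINC02535 held a pair of matches of which the farther began 180 bases before it. The region around the LOC107986092 start, chr3:58469800-58472399 as deposited, had an H3.3 mean height of 19.4 against 2.86 in H3.1/H3.2, a 6.80-fold difference with a 95% counting interval of 4.72 to 10.1. It lies between PDHB, a subunit of pyruvate dehydrogenase, and KCTD6. The region at LINC03108, between IRF2BP2 and TOMM20, had an H3.3 height of 18.2, which was 5.86 times (4.13 to 8.40) that of H3.1/H3.2. The region at LOC124903318 was the only one of the 6 called in both ChIPs, with 12.5 against 5.60.

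The AP-1 letters were more frequent in these windows than in any other set of RefSeq promoters counted. Their share was 30.2% of 43 windows (95% Clopper-Pearson interval 17.2 to 46.1). It was 13.4% (11.5 to 15.5) of 1159 windows wholly inside gene-assigned regions without a CpG island above the same ratio threshold and 5.70% (2.64 to 10.5) of 158 windows inside such regions at or below it. It was 3.41% of 5897 windows inside gene-assigned regions with a CpG island above the threshold and 4.92% of all 34961 RefSeq promoters. Among lncRNA promoters alone the shares were 31.7% (18.1 to 48.1) of 41 windows inside members, 16.8% (13.7 to 20.3) of 530 inside gene-assigned regions without a CpG island above the threshold, and 6.49% of all 12829. The last pair of intervals, for members and gene-assigned regions, overlap. The letters were counted after earlier results of these data were known, and the difference was not tested.

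Where the letters lay also differed in its point values. In 7 of the 13 windows (53.8%, 25.1 to 80.8) the match nearest the 5′ end began between bases -100 and -50 from the start, against 21.1% of the 1720 windows with the letters among all promoters and 27.1% (20.3 to 34.8) of 155 in the gene-assigned regions. With 13 windows the interval is wide and overlaps the latter. Members with and without the letters overlapped in H3.3. Regions around the 13 windows ranged from 5.29 to 19.4 with a median of 9.44 (7.74 to 12.5), and those around the other 30 ranged from 6.06 to 18.2 with a median of 10.2 (9.12 to 13.3). A match is a run of letters and does not show that AP-1 was bound.

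Of 9 motifs searched as exact letters on both strands, no other stood as far from the remaining promoters. GGAATG, read by the TEAD factors that partner YAP, was in 20.9% of the 43 windows (10.0 to 36.0) and in 14.04% of all promoters. CACCTG, the E-box of SNAI and ZEB repressors, was in 27.9% (15.3 to 43.7) against 20.6%. CCGGAAG, read by ETS factors, was in 9.30% (2.59 to 22.1) against 10.3%, and AGATAA, read by GATA factors, in 9.30% against 10.3%. As 41 of the 43 windows belong to lncRNA genes, lncRNA promoters are the closer comparison. Among those the shares inside members and over all were 19.5% and 17.1% for TEAD, 26.8% and 21.6% for the E-box, 9.76% (2.72 to 23.1) and 5.85% for ETS, and 9.76% and 14.5% for GATA, so the order turned for ETS, and each interval inside members included the share over all. TGTTTAC (forkhead), TGTGGTT (RUNX) and CACTAGG (part of the CTCF site) were each in 1 of the 43 windows, and TTGCAAT (C/EBP) was in 0. The windows held 52.3% G and C at the median (49.7 to 54.3) and a CpG observed over expected of 0.24 (0.23 to 0.31). These values were 58.7% and 0.58 over all promoters, and 50% and 0.29 over all lncRNA promoters. The absence of a CpG island was part of the choice.

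**Figure D1:**
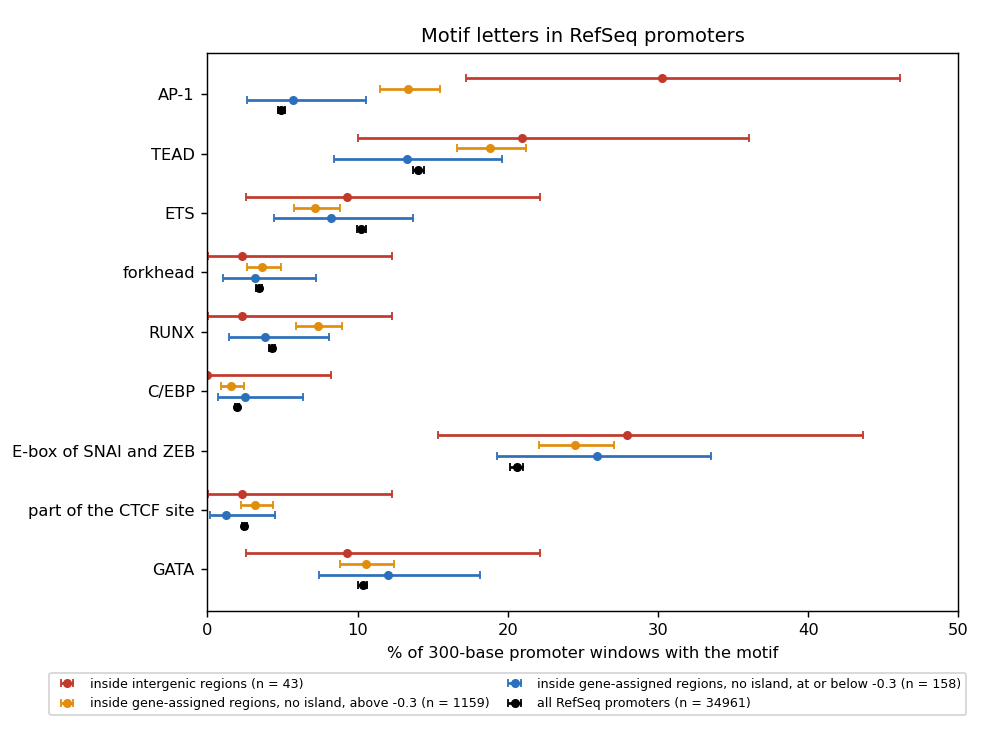
Share of RefSeq promoter windows that hold each motif, in percent on the horizontal axis, for windows inside the intergenic regions, inside gene-assigned regions without a CpG island above and at or below the ratio threshold, and for all promoters. Points are shares and bars 95% Clopper-Pearson intervals. The AP-1 share is 30.2% inside the intergenic regions and 13.4%, 5.70% and 4.92% in the other sets, whereas for the other 8 motifs the interval of the intergenic regions reaches the shares of the other sets.

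These regions carried H3.3 well above H3.1/H3.2, which is how they were chosen, so the heights that follow are a description. The height is the pileup of sequenced fragments, given by the authors as its mean and its highest value over a region. The median H3.3 mean height was 9.27 (9.17 to 9.38), with a range from 4.61 to 35.8. The median H3.1/H3.2 mean height was 3.03 (2.97 to 3.07), from 0 to 11.5, and 3 regions had a height of 0. The median log2 ratio was 1.37 (1.35 to 1.39), with 5% of regions below 0.64 and 5% above 2.07. At their highest base the medians were 17 (H3.3) and 7 (H3.1/H3.2). The estimated tags in a region, with medians of 22.4 in the H3.1/H3.2 ChIP and 68.3 in the H3.3 ChIP, set the counting error, and all members together held 99530 and 296207 tags.

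The authors called 2989 of the 3065 regions (97.5%) in H3.3 alone, 64 in both ChIPs and 12 in H3.1/H3.2 alone. Over all 67965 regions 45.7% were called in H3.3 alone. For the fold of H3.3 against H3.1/H3.2, 2869 regions had a counting interval above 1 (93.6%, against 45.2% of all regions), 196 had one that included 1 and 0 had one below 1, and the fold was above 2 in 2734 (89.2%, against 36% of all regions). The rule used this contrast, so nothing is read from these shares. The sources used here do not give the scaling between the libraries, and a ratio's sign depends on it.

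The ratios of gene-free regions without a CpG island fell into a high and a low group, and the threshold lay where few regions were. Few of these regions were called in both ChIPs, 64 of the members and 12 of the 436 at or below the threshold. How the calling shaped the gap between the groups was not tested. The log2 ratio was between -0.5 and 0 in 50 regions and between 1.0 and 1.5 in 1359. Within 0.3 of the threshold there were 28 members above it and 34 regions at or below it. The member nearest the threshold, chr8:127837600-127839399 inside the RefSeq gene PVT1, a lncRNA next to MYC, had a ratio of -0.29 with an H3.3 height of 6.12 and an H3.1/H3.2 height of 7.70, and only the H3.1/H3.2 ChIP called it. Next were chr11:28750800-28752199 at -0.25 and chr7:66586000-66588399 at -0.25. Just outside were chr3:93470200-93470999, chr12:132109800-132112599 and chr14:102746400-102753799, at -0.30, -0.31 and -0.31. The first of these had heights of 179 and 220.7, both above every mean height among the members.

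**Figure D2:**
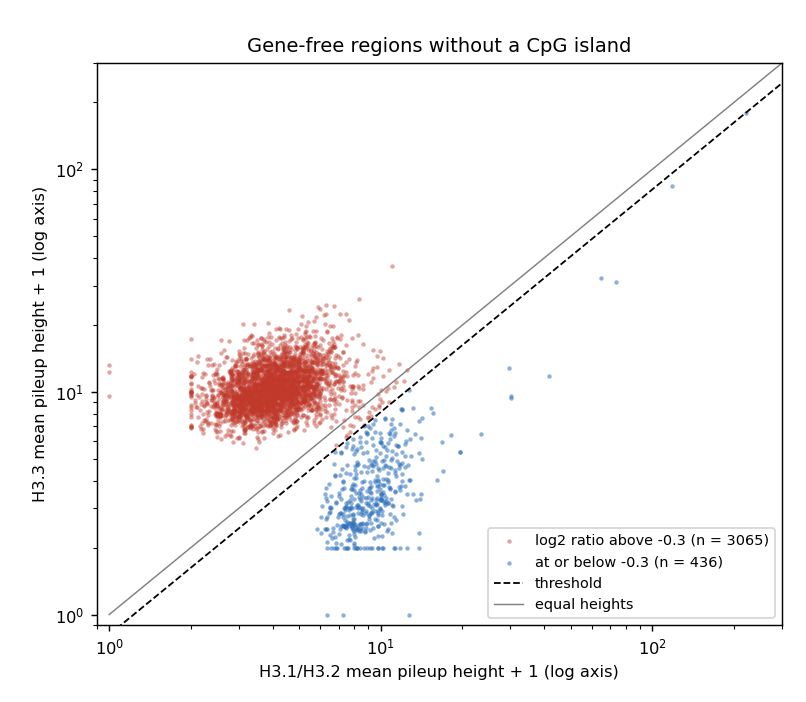
Mean pileup height + 1 of H3.3 (vertical log axis) against H3.1/H3.2 (horizontal log axis) in 3501 gene-free regions without a CpG island, 1 point per region. The 3065 regions above the dashed threshold form a cloud around 9.27 and 3.03, and the 436 at or below it lie around 2.33 and 8.05.

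Compared with other regions without a CpG island above the same threshold, the intergenic ones had a median H3.3 height within 0.31 of theirs and a lower median H3.1/H3.2 height. Their median H3.3 height differed by -0.04 (-0.19 to 0.11) from that of 2348 regions near a gene, by -0.04 (-0.15 to 0.09) from that of 7469 promoter regions, and by 0.31 (0.20 to 0.43) from that of 14323 regions in gene bodies, where it was 8.96. The median H3.1/H3.2 height was 3.03 in the intergenic regions, 3.59 near genes, 3.94 at promoters and 4.58 in gene bodies. The differences were -0.57 (-0.66 to -0.48), -0.92 (-0.995 to -0.85) and -1.55 (-1.63 to -1.47). The share called in H3.3 alone was 97.5% in the intergenic regions, 90.5% near genes, 82.2% at promoters and 74.4% in gene bodies. Over all regions it was 45.7%. The rule used this contrast, so nothing is read from the order of these shares. Gene bodies reached nearer the threshold, with a 5th percentile of the log2 ratio of -0.21, against 0.64 in the intergenic regions. Both heights entered the rule, so these differences are a description. The threshold on the ratio acts on all of these classes, and with none in either class the H3.3 difference from gene bodies was 3.32 (3.21 to 3.42). The H3.1/H3.2 difference was not computed without a threshold. Among regions called in H3.3 alone, the H3.3 difference from gene bodies was 0.07 (-0.05 to 0.19) and the H3.1/H3.2 difference was -0.80 (-0.87 to -0.74). Such calls also select on the contrast of the ChIPs.

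The 345 gene-free regions that did hold a CpG island, to which no threshold was applied, were taller in H3.3, with a median of 10.9 (10.3 to 11.2), and had 3.72 for H3.1/H3.2. The 436 gene-free regions without an island at or below the threshold had 2.33 (H3.3) and 8.05 (H3.1/H3.2), and 97.2% of them were called in H3.1/H3.2 alone.

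**Figure D3:**
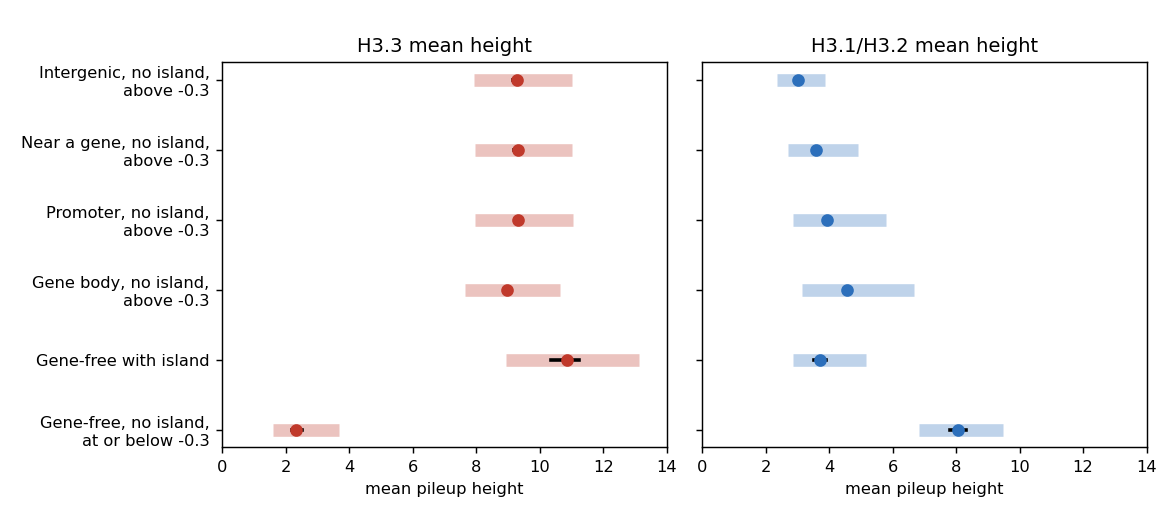
Mean pileup height of H3.3 (left) and H3.1/H3.2 (right) in 6 classes of regions. Dots are medians, black lines their 95% order-statistic intervals (mostly within the dot) and pale bands the range from the 25th to the 75th percentile. The 4 classes without a CpG island above the threshold share an H3.3 median of 8.96 to 9.31, while their H3.1/H3.2 median runs from 3.03 in intergenic regions to 4.58 in gene bodies.

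Length was not used by the rule. The median member was 1599 bases long (1599 to 1799), from 199 to 13999, with 5% below 599 and 5% above 4799. Gene-free regions at or below the threshold were shorter, with a median of 999, and regions in gene bodies and near genes above it had a median of 1799. Members under 1000 bases numbered 827 (27.0%) and those of 5000 bases or more 136 (4.44%). Longer members were taller in both ChIPs. The H3.3 median was 8.67 under 1000 bases, 8.86 from 1000 to 2000, 9.59 from 2000 to 3000, 10.6 from 3000 to 5000 and 12.6 from 5000 on. The H3.1/H3.2 median ran from 2.63 to 4.20 over the same bins, so the ratio stayed level: across the 3065 members Spearman's correlation with length was 0.32 for H3.3, 0.31 for H3.1/H3.2 and -0.04 for the log2 ratio. These correlations are across regions of the same libraries, which share depth and scaling.

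The longest member, chr11:69903200-69917199, spanned 13999 bases between FGF3, a fibroblast growth factor gene, and ANO1, a calcium-activated chloride channel gene, with a 3.17-fold difference (2.73 to 3.72) and H3.1/H3.2 at 3.48. Next was chr21:46055000-46068599, between the collagen VI genes COL6A1 and COL6A2, with 15.1 and 5.60. A pair of members of 12799 bases each followed, chr10:72304800-72317599 between DDIT4, an inhibitor of mTORC1 signalling, and DNAJB12, with 16.4 and 5.90, and chr14:35330400-35343199 between PSMA6 and NFKBIA, the gene of an NF-kappaB inhibitor, with 13.6 and 5.15. In the sixth longest, chr1:211630200-211642599 over the lncRNA gene NTRAS, the fold was 5.24 (4.38 to 6.30). Each of these had a counting interval above 1.

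The tallest member was chr20:62621200-62627199, 15304 bases from SLCO4A1, an organic anion transporter gene. Its mean heights were 35.8 (H3.3) and 10.0 (H3.1/H3.2), a fold of 3.58 (3.13 to 4.12), and its highest H3.3 base reached 114. The second, chr10:46519800-46529599 between NPY4R and GPRIN2, had 25.1 and 7.29. The third, chr9:136567600-136580199, lay 21552 bases from NOTCH1, the gene of a signalling receptor, and had 23.6 and 5.31, a fold of 4.44 (3.92 to 5.05). It was also the fifth longest. The others among the 8 tallest were chr20:23143800-23145799 near CD93 at 23.4, chr14:50059400-50063399 in LINC01599 at 23.02, chr17:50025600-50030799 between the homeobox gene DLX3 and the integrin gene ITGA3 at 22.6, chr20:64119200-64120199 at 22.3, and chr20:50438000-50442599 at 21.5. Of these 8 regions, 4 were on chromosome 20.

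The highest ratios rested on few tags. The first and second were 199 bases long, chr16:21521400-21521599 and chr17:64994000-64994199, with 1 H3.1/H3.2 tag each and fold intervals of 2.31 to 631 and 1.78 to 513. The best-counted of the 8 was chr18:39801000-39803199, 2026312 bases from the nearest protein-coding gene on its left and 2152035 on its right, with heights of 19.2 and 2.12 and a fold of 9.04 (5.69 to 14.8). The region chr15:70473000-70475199 between the transcriptional corepressor gene TLE3 and UACA had 16.0 and 1.77, a fold of 9.06 (5.59 to 16.3).

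By RefSeq, 2477 members (80.8%) overlapped no gene, 364 (11.9%) lay in a lncRNA gene and 126 (4.11%) in a protein-coding gene, so that gene-free refers to the authors' annotation. Heights differed little by this place, with H3.3 medians of 9.28 outside genes, 9.37 in lncRNA genes and 9.10 in protein-coding genes. The nearest RefSeq protein-coding gene was 35973 bases away at the median (34084 to 38059), with 5% of members within 5131 bases and 5% beyond 311593. Members beyond 300000 bases of a coding gene were lower in both ChIPs. H3.3 medians were 9.32 within 10000 bases, 9.23 from 10000 to 25000, 9.66 from 25000 to 50000 and 9.35 from 50000 to 100000. They were 9.08 from 100000 to 300000 and 8.56 (8.16 to 8.87) in the 165 members farther away. H3.1/H3.2 medians in this order were 3.26, 3.04, 3.09, 3.01, 2.97 and 2.63. The 165 were also shorter, with a median of 1399 bases (1199 to 1399) against 1599 or 1799 in the nearer bins. Shorter members were lower in both ChIPs, and length and distance were not separated. The 43 members around a promoter window had an H3.3 median of 9.90 (9.12 to 12.4), against 9.29 (9.18 to 9.40) in the other 2838 members off chromosome 8. Their median length was 2799 bases, and a longer region more easily holds a whole window. Of the RefSeq microRNA hairpins, 0 overlapped a member. The rule had left out every region with an assigned gene, so nothing is read from this count.

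Every chromosome from 1 to 22 and X held members, at 1.01 per Mb over the genome, counted to the end of the last RefSeq gene. The density ran from 0.35 per Mb on X and 0.37 on 18 to 2.09 on 22 and 2.15 on 20, a 6.09-fold span. Counted per Mb away from RefSeq genes the order changed, from 0.80 on X to 10.2 on chromosome 19, which has 8.40 Mb of such sequence, and the span was 12.8-fold. As a share of all regions on a chromosome, members made up 1.78% (1.42 to 2.19) on 19, 2.53% (2.03 to 3.12) on 16, 7.04% (5.95 to 8.27) on 20 and 7.63% (6.60 to 8.76) on 8. Chromosome 19 was thus among the densest by length and the lowest by share.

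Chromosome 20 also held the tallest members at the median in both ChIPs. The 138 members there had an H3.3 median of 10.7 (10.1 to 11.3), an H3.1/H3.2 median of 4.06 (3.75 to 4.27) and a length of 2599 bases, against 9.27, 3.03 and 1599 over all. Their ratio, 1.31, was no higher than the 1.37 over all. Chromosome 14 was next at 10.3 (9.56 to 11.4), and 13, X, 4 and 18 were lowest, at 8.05, 8.21, 8.34 and 8.45. The H3.1/H3.2 median was likewise high on 14, at 3.63, and low on 13 and X, at 2.47 and 2.32. Heights of other regions on these chromosomes were not compared, so these values are not shown to be particular to members. The input was not analysed here, and whether heights or densities follow DNA copy number along the genome was not tested. Members were 55.8% (47.6 to 63.8) of the gene-free regions without an island on chromosome 19, 57.3% (46.8 to 67.3) on X, 70.6% on 21 and 73.2% on 14, against 95.5% on 1 and 87.5% over all.

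**Figure D4:**
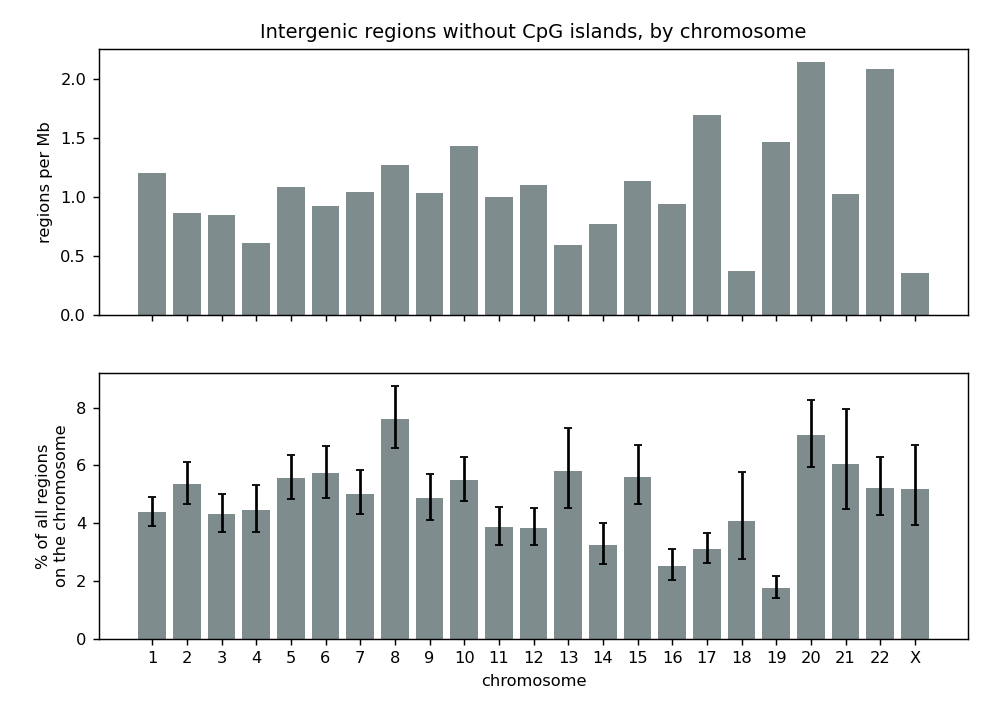
Intergenic regions without CpG islands by chromosome, as regions per Mb (upper panel) and as a percentage of all regions on the chromosome with 95% Clopper-Pearson intervals (lower panel). Chromosomes 20 and 22 reach 2.15 and 2.09 regions per Mb, and chromosome 19, at 1.47 per Mb, has the lowest share, 1.78%.

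Members stood farther from their neighbours than gene-assigned regions did, and gene-free sequence was part of the choice. The distance from a member's end to the next region of any kind was 15800 bases at the median (14200 to 17400). It was 4000 for regions near genes, 3000 in gene bodies and 1800 at promoters, all without an island and above the threshold, and 29600 (18600 to 45000) for gene-free regions at or below it. The next region lay within 1000 bases for 19.6% of members and within 10000 bases for 42.4%, beyond 100000 bases for 18.3% (6.81% of all regions) and beyond 1000000 bases for 53 members. Only 5 members abutted the next region. The most isolated, chr4:59655800-59656599, was 2535400 bases from the region before it and 6012400 from the one after, with heights of 6.04 and 2.28 and a fold of 2.65 (1.18 to 7.14).

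What came next was most often another member. Members were chosen as gene-free, so the shares over all regions set beside those of the next region are not a like baseline. The next region was a member in 1559 cases (50.9%, 49.1 to 52.6), and members are 4.51% of all regions. It was a promoter region in 698 (22.8%, against 34.5% of all regions), in a gene body in 369 (12.04%, against 55.1%), near a gene in 293 (9.56%, against 4.78%) and a gene-free region without an island on the H3.1/H3.2 side in 44 (1.44%, against 0.64%). It was called in H3.3 alone in 87.8% of cases, against 45.7% for the next region after any region. Members, 97.5% of them called in H3.3 alone, made up 50.9% of these next regions. The rule chose members on this contrast, so nothing is read from the 87.8%. Counted among gene-free regions without an island alone the next one was on the same side of the threshold for 95.2% (94.4 to 95.9) of members, which make up 87.5% of such regions. For regions at or below the threshold it was 66.0% (61.3 to 70.4), which make up 12.5%.

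**Figure D5:**
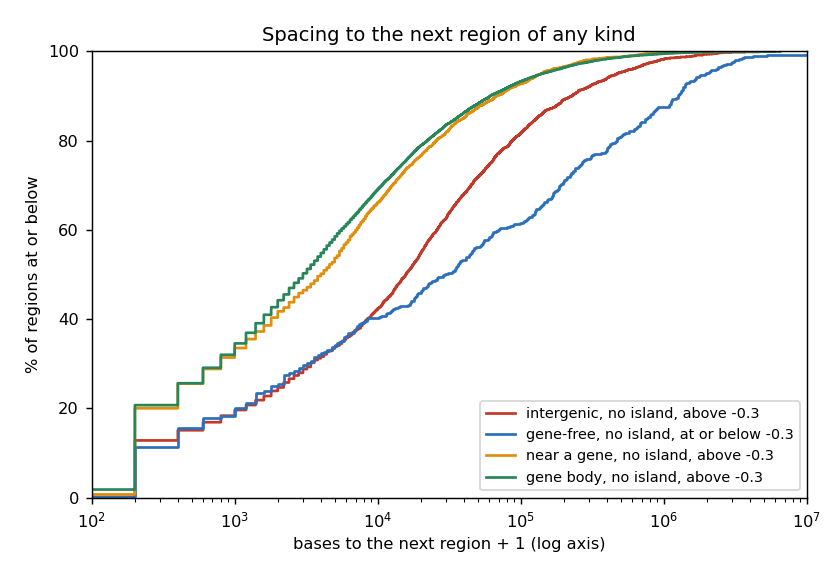
Cumulative percentage of regions (vertical axis) by the number of bases to the next region + 1 (horizontal log axis) for intergenic regions, gene-free regions at or below the threshold, and regions near genes and in gene bodies, all without a CpG island. At 10000 bases the intergenic curve has reached 42.4%, against 66.2% near genes and 69.2% in gene bodies.

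From a member to the next the distance was 71400 bases at the median (57200 to 86000), but the middle of the distribution spread from 3600 to 852900 bases between the 25th and the 75th percentile. With members joined where the gap was at most 10000 bases, 1452 (47.4%) stood alone, 724 (23.6%) formed 362 pairs and 889 (29.0%, 27.4 to 30.6) formed 233 runs of 3 or more. Runs of 5 or more numbered 48 with 283 members. H3.3 was taller in larger runs, with medians of 8.93 (8.80 to 9.09) alone, 9.36 (9.14 to 9.55) in pairs, 9.67 (9.48 to 9.92) in runs of 3 or 4 and 10.2 (9.86 to 10.7) in runs of 5 or more. H3.1/H3.2 was 2.87 alone and 3.34 in runs of 5 or more, and the median ratio was 1.39 and 1.41. The median length was 1599 bases alone and 1999 in the largest runs.

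Neighbouring members up to 100000 bases apart were ranked more alike in H3.1/H3.2 than in H3.3. Members' H3.3 heights began at 4.61 and their H3.1/H3.2 heights at 0, and how this range bears on the correlations was not tested. Spearman's correlation between a member and the next was 0.36 in H3.1/H3.2 heights and 0.17 in H3.3 heights over 456 pairs within 1000 bases. Over 589 pairs from 10000 to 100000 bases apart it was 0.34 and 0.12, and over 1439 pairs farther apart 0.15 and 0.15. These are across regions of the same libraries, which share depth and scaling. The median absolute log2 difference between neighbours was 0.28 (H3.3) and 0.30 (H3.1/H3.2) within 1000 bases and 0.27 and 0.34 beyond 100000 bases.

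Of 2456 windows of 1 Mb with any region, 1056 held a member, and the 192 windows with 5 or more held 47.8% of all members. The window with the most, 25, was 69 to 70 Mb on chromosome 11, around CCND1, the cyclin D1 gene, and the fibroblast growth factor genes FGF19, FGF4 and FGF3. Its members had median heights of 9.76 (H3.3) and 3.18 (H3.1/H3.2), near those over all members. It was followed by 45 to 46 Mb on chromosome 21, around COL18A1 and COL6A1, with 20, and by a pair with 19 each. These were 50 to 51 Mb on chromosome 20, around CEBPB and PTPN1, with median heights of 12.1 and 4.41, and 70 to 71 Mb on chromosome 15, around TLE3 and UACA, with 8.96 and 2.41.

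Of 3 runs with 9 members each, the one on chromosome 11 spanned the most, and its members filled 58.7% of chr11:69901800-69969599, beyond FGF3 and reaching into the RefSeq gene ANO1. Their H3.3 heights were, in order along the chromosome, 10.8, 11.04, 9.54, 8.92, 14.5, 11.2, 17.7, 7.73 and 9.76, and their H3.1/H3.2 heights were 2.81, 3.48, 3.91, 2.98, 3.83, 2.35, 5.34, 8.84 and 2.78. The eighth was the exception, with more H3.1/H3.2 than H3.3 and a call by the H3.1/H3.2 ChIP only, and the other members each had a fold interval above 1.

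On chromosome 20, 9 members covered 76.7% of chr20:50410800-50451999, upstream of PTPN1, the gene of a tyrosine phosphatase that acts on receptors. Their H3.3 heights were 12.1, 19.5, 12.7, 11.6, 11.2, 14.98, 21.5, 9.53 and 12.4, with H3.1/H3.2 between 2.52 and 5.44, and all 9 folds had an interval above 1. The summed tags of this run were 2068 (H3.3) and 614 (H3.1/H3.2). The 9 members of chr17:64678200-64719799, beside SMURF2, a ubiquitin ligase gene of TGF-beta signalling, ranged from 6.94 to 16.7 in H3.3 and from 2.79 to 5.71 in H3.1/H3.2, with 8 intervals above 1.

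On chromosome 19, 8 members of chr19:16277000-16307399, 17427 bases from KLF2, a transcription factor gene known for its role in endothelial cells, ranged from 8.70 to 13.9 in H3.3 and from 1.65 to 3.303 in H3.1/H3.2. On chromosome 10, 8 members of chr10:33128400-33165599, 11894 bases from NRP1, a semaphorin and VEGF co-receptor gene, ranged from 6.97 to 14.9 and from 2.08 to 5.06. A run of as many members lay beside the growth factor gene PDGFA, at chr7:447800-486599, from 8.10 to 21.4 and from 1.91 to 9.16. In these 3 runs the interval lay above 1 in 8, 8 and 7 members.

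Counted from gene starts, few coding genes had such a region close by. The rule had left out every region with an assigned gene, so this count does not cover H3.3 regions at genes. A member lay within 100000 bases of the start in 1959 of 15812 protein-coding genes (12.4%), and 115 genes (0.73%) had 5 or more. Distances from a gene start, here and in the lists below, run to the centre of the member and not to its edge. Promoter windows and gene starts of chromosome 8, where 184 members lie, were not analysed here. PTPN1 had the most, 13, followed by KLF2 and SMURF2 with 11 each and ANO1, ERRFI1 and FGF3 with 10 each. ERRFI1 encodes an inhibitor of the EGF receptor. Genes of 1 locus share the same regions.

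The 7 gene lists drawn up for this line held 8 to 14 genes, of which 5 to 10 had a start in the table used, and the shares below are of those and wide. Of the genes listed as luminal, which mark breast tumours of other subtypes, 4 of 8 had a member within 100000 bases (interval of the share 15.7 to 84.3%). These were ELF3 with 4, KRT8 with 3, GATA3 with 2 and SPDEF with 1. The other 4, ESR1, PGR, FOXA1 and ERBB2, had 0, with the nearest member 2487, 1867, 1623 and 706 kb from the start. The SPDEF neighbour, chr6:34566400-34577199, was 10799 bases long with heights of 12.2 (H3.3) and 5.33 (H3.1/H3.2), and those nearest KRT8, GATA3 and ELF3 had H3.3 heights of 10.0, 9.32 and 7.16. Of the immediate early and AP-1 genes 2 of 10 had a member, DUSP1 with 6 and FOS with 1, and of the YAP targets 2 of 7, F3 and AMOTL2. Of the matrix and mesenchymal genes LOX and SPARC did (2 of 10), and of the lung metastasis signature SPARC and ID1 (2 of 10).

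Of the 12 factors of epithelial-mesenchymal transition listed, 7 had a start in the table used. By the member's centre, 0 of these had a member that close, which leaves a share of up to 41.0% possible. TWIST2 and FOXQ1 had the centre of theirs just outside, at 100.8 and 111.4 kb, with H3.3 heights of 12.7 and 10.5. The TWIST2 member begins at base 238946600, within 100000 bases of the gene's start at 238848085, so the count of 0 depends on measuring to the centre. Among 5 genes of other tissues, INS, the insulin gene, had 5 members within 100000 bases, the nearest with heights of 8.65 and 2.97. For 6 of the 7 lists the interval of the share included the 12.4% over all coding genes, and for the luminal list it began at 15.7%, with no adjustment for the 7 lists and no test.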

How the data were processed

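The H3.1/H3.2 and H3.3 ChIP libraries (1 each) of MDA-MB-231 LM2 cells were analysed, and the input library was left out. The submitters' processing notes name BWA, SICER and hg38, without versions. The authors deposited 1 table of merged regions with, per the file headers, a pileup signal for each ChIP (mean and highest height), a mark of the calls, and counts of genes, promoters and CpG islands. The authors' log2 ratio, also deposited, was not used. The scaling between libraries is not given. Coordinates stand as in the table, whose starts are multiples of 200, and whether counting begins at 0 or 1 is not stated.

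From these were computed the log2 ratio of mean heights with a pseudocount of 1, and tags as mean height times length over 224, the table's own constant. Folds carry exact conditional, shares Clopper-Pearson and medians order-statistic 95% intervals, and differences of medians combine both intervals in quadrature. Fold intervals are computed from the tag counts of each region alone, so they cover counting error only. Intervals over regions describe spread, not replication. Reads have no molecular identifiers, and how duplicate reads bear on the tags was not tested. The interval functions were tested on simulated data. Python 3.11.15, numpy 2.4.6, pandas 2.3.3, scipy 1.17.1 and matplotlib 3.10.9 were used.

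Genes, starts and promoter sequences came from RefSeq tables of GRCh38.p14, the assembly of hg38, over 58419 genes placed on the chromosomes themselves. Motif letters had been planned for the regions' own sequence and were searched in RefSeq promoters instead, since no genome sequence was used here. Named regions were the 8 tallest, 8 longest and 8 with the highest ratio (among members whose summed heights reached the members' median), the 5 largest runs, the 5 most isolated and the 3 nearest the threshold on each side, of which the ones with most to show are printed. Sequences shown, and the PDGFA run, were chosen after values were seen. The members and gene lists were chosen with earlier results of these data known.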

Additional observations from a re-analysis of the deposited data

How the results depend on the processing

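No paired analysis was possible because each antibody had 1 library, so there was no replicate to leave out. Of 75 values recomputed under alternatives, 44 stayed within the interval of the reported value (or, for counts and values without one, within 1.5 times it), 31 did not and 0 changed sign.

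Keeping only members whose summed heights reached the median over all regions left 1077, with a log2 ratio of 1.42, heights of 11.7 (H3.3) and 3.92 (H3.1/H3.2), a length of 2199, 94.2% called in H3.3 alone, and spacings of 8800 to the next region and 296400 bases to the next member. With no threshold the ratio was 1.30, the heights 8.91 and 3.23 and the share called in H3.3 alone 85.4%, and with a threshold of 0 that share was 98.4%. A pseudocount of 10 gave a ratio of 0.56 and a share of 96.1%, a pseudocount of 0.1 a ratio of 1.62, and highest heights in the rule a ratio of 1.28. Members of at least 1000 bases had heights of 9.54 and 3.14, a length of 1999 and spacings of 13800 and 125600. Centre to centre the next region was 18100 bases away. Joining within 5000 or 20000 bases put 21.8% or 36.8% of members in runs of 3 or more.

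The H3.3 difference from gene body regions was 3.32 with no threshold in either class, 0 (-1 to 0) for highest heights and 0.07 among regions called in H3.3 alone. The H3.1/H3.2 difference was -0.80 among those, -1.68 for regions of at least 1000 bases and -3 for highest heights, alternatives chosen after seeing the data, as were those of the AP-1 share. That share was 13 of 45 with the start inside, 14 of 51 with any overlap, and 12 of 40 in members called in H3.3 alone. The planned sequence content of whole and central region windows was not run, since no genome sequence was used here. Counting error limits single folds, most of all in the 827 members under 1000 bases.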
